A study of Mus musculus with 6 samples.

Results

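Crossover pathway genes of the ZMM and MutL groups were followed in whole testes of juvenile mice with and without Ankrd31. The 8 genes were Msh4, Msh5, Tex11, Hfm1, Rnf212, Ccnb1ip1, Cntd1 and Mlh3, chosen by name and matched to the deposited table through GENCODE gene identifiers. All 8 were found among 49671 gene rows, and all 8 passed the filter on low counts that left 18040 genes to test. The libraries came from C57BL/6J males at 12 days post-partum, 3 libraries of homozygous Ankrd31 knockout (KO, Ankrd31-/-) and 3 of wild type (WT, Ankrd31+/+), with no treatment. The labels do not say which part of Ankrd31 is missing or whether replicate numbers mark litters or days. The libraries held 21972002, 22055492 and 22415062 counts in KO replicates 1, 2 and 3, and 21945226, 22706296 and 21014060 counts in WT replicates 1, 2 and 3.

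Ankrd31, the targeted gene, stood at 40.8, 33.2 and 38.0 CPM (counts corrected for TMM library size) in the KO libraries, against 84.9, 52.3 and 63.2 CPM in the WT libraries. Its log2 fold change, KO over WT, was -0.84 ± 0.17 (SE; edgeR adjusted p = 1), and -0.82 ± 0.07 with the replicate number as a block (edgeR adjusted p = 0.00505). Reads from exons outside the missing part would still be counted, so this checks the labels only in part. Testis markers were present in all 6 libraries: 10 Sertoli cell genes summed to 6400 to 6950 CPM in KO and 5920 to 6840 CPM in WT, and 14 genes of the meiotic chromosome axis and synapsis to 1900 to 2530 CPM in KO and 1540 to 2560 CPM in WT. Most of the Sertoli sum was Clu, at 4160.5 to 4437 CPM in KO and 3761 to 4167.2 CPM in WT. The first principal component, with 36.7% of the variance, placed replicate 1 of both genotypes apart, at -23.37 for KO 1 and -25.55 for WT 1, with the other 4 libraries between 3.75 and 22.84. Of 7 epididymis and rete genes 5 were highest in WT replicate 3, all but Pax2 and Epcam, and there Crisp1 stood at 29.7 CPM against 2.88 CPM or less elsewhere.

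Meiotic cells cut their DNA on purpose and repair a minority of the breaks as crossovers, which hold homologous chromosomes together until they part. The ZMM proteins stabilise the joint DNA molecules from which most crossovers come, and mark the sites. The MutL group, to which MLH3 belongs, then cuts those molecules so that they become crossovers, mostly in pachytene. At 12 days the first wave of germ cells is in early meiotic prophase, so these genes are read here at the start of their use.

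The promoter windows are shown for the 4 members that differed most between libraries (Msh4, Msh5, Hfm1 and Cntd1) and for Mlh3, which differed least. RefSeq (GRCm38.p6) had a window of 250 bases before to 50 after the start for 7 of the 8 members. Each is written 5′ to 3′ on the gene's strand, with capitals where a searched motif matched on either strand.
Msh4 (chr3:153904842-153905141, minus strand): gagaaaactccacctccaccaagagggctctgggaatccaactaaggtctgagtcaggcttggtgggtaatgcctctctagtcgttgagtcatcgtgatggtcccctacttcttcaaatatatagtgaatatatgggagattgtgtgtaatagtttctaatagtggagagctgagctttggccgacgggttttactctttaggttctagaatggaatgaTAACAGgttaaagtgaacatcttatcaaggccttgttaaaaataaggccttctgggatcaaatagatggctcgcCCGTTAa
Msh5 (chr17:35046573-35046872, minus strand): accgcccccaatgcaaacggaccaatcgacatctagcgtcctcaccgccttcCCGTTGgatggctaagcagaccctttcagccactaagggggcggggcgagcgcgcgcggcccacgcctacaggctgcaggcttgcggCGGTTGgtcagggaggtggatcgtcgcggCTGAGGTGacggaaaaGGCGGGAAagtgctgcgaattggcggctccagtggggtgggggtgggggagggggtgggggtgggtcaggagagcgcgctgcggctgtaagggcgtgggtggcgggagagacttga
Hfm1 (chr5:106925841-106926140, minus strand): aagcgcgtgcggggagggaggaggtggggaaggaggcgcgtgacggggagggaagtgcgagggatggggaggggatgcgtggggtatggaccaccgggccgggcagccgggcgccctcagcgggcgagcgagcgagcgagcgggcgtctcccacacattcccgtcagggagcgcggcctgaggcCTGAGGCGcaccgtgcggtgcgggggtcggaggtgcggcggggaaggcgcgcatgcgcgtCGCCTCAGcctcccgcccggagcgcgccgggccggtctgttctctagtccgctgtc
Cntd1 (chr11:101278953-101279252, plus strand): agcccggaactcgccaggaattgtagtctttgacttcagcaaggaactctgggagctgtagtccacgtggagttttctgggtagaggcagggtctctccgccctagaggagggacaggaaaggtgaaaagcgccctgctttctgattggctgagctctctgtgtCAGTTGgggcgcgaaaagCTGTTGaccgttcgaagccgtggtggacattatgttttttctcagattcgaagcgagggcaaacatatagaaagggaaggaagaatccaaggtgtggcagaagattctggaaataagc
Mlh3 (chr12:85270542-85270841, minus strand): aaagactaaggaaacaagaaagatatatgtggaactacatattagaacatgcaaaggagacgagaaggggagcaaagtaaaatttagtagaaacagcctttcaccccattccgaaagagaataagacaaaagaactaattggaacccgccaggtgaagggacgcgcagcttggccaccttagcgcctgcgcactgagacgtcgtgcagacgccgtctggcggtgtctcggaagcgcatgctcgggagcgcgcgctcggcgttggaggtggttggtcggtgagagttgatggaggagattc

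The motifs searched were the E2F site GGCGGGAA, the cyclic AMP response element TGACGTCA, the site CNCCTCAG reported for the meiotic initiation factors STRA8 and MEIOSIN, the MYB site written as TAACNG or CAACNG, and the X-box core GTTGCCA. Hfm1 held 2 matches to CNCCTCAG, beginning 66 bases and 6 bases before the RefSeq start, and no match to the other 4 motifs. Msh5 held 1 match to CNCCTCAG, 1 match to GGCGGGAA and 2 MYB matches. Msh4 and Cntd1 held 2 MYB matches each and no others, and Mlh3 held none of the 5. Among all 32851 windows of the same length, 7.94% held CNCCTCAG, 2.2% GGCGGGAA, 1.79% TGACGTCA, 49.7% a MYB match and 4.38% GTTGCCA. Among the windows not printed, Rnf212 held 1 match to GGCGGGAA and Ccnb1ip1 held 1 MYB match, and no match in any member overlapped another. GC content ran from 75.3% in Hfm1 and 67.3% in Msh5 to 43.3% in Msh4, beside a median of 52.7% over all windows. CG dinucleotides numbered 41 in Hfm1, 27 in Msh5, 21 in Mlh3, 12 in Cntd1 and 6 in Msh4, beside a median of 7. The RefSeq start of Msh4 lay 1247 bases from the first base of the gene in the deposited table and that of Hfm1 431 bases, so those windows describe 1 annotated start each.

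Levels per kilobase of exon separated Tex11 from the other members, as the plot of levels per exon length shows. Tex11 averaged 55.9 ± 5.32 CPM per kb in KO and 51.5 ± 4.82 CPM per kb in WT (SD, n = 3 each), above every other member in 6 of 6 libraries and above 94.2% of all tested genes by its mean. Hfm1 came next with 14.1 ± 2.89 CPM per kb in KO and 11.3 ± 5.31 in WT. Mlh3 had 7.60 ± 0.104 CPM per kb in KO and 8.14 ± 0.562 in WT, and Ccnb1ip1 had 7.84 ± 0.742 in KO and 7.20 ± 1.20 in WT. Hfm1 exceeded Mlh3 in 5 libraries but not in WT 2, and Mlh3 exceeded Ccnb1ip1 in 3 of 6, so neither pair of neighbours was parted beyond its spread. Msh5 followed with 4.67 ± 0.862 CPM per kb in KO and 4.23 ± 1.29 in WT, below Ccnb1ip1 in all 6 libraries. Cntd1 had 3.58 ± 1.38 CPM per kb in KO and 3.77 ± 3.09 in WT, and Rnf212 had 3.12 ± 0.349 in KO and 3.09 ± 0.485 in WT, with overlapping ranges. Msh4 was lowest in every library, at 1.41 ± 0.416 CPM per kb in KO and 1.44 ± 0.753 in WT. Its partner Msh5 was thus above it in 6 of 6 libraries. Exon length is the sum over all annotated exons, so a long exon that the testis does not use would lower a gene's value.

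**Figure D1:**
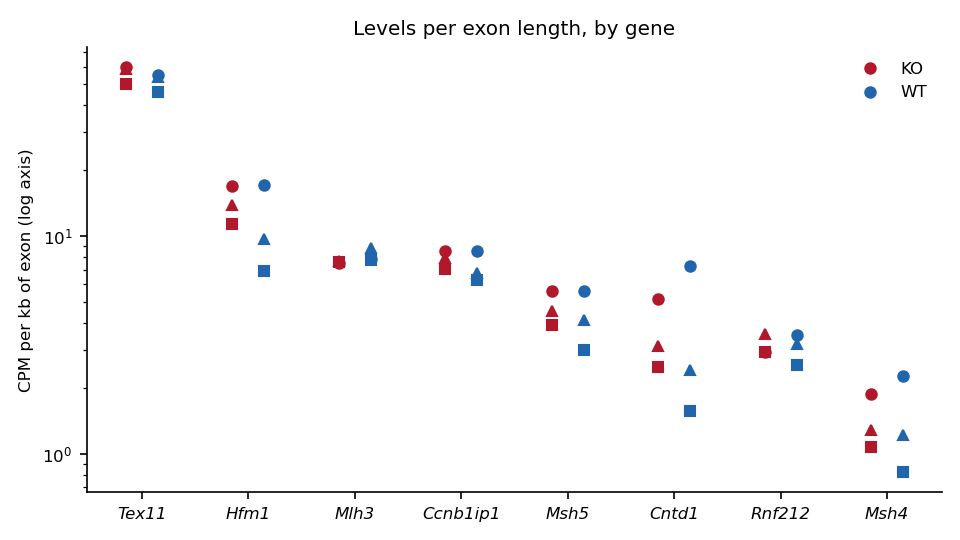
Level of each crossover pathway gene in CPM per kb of summed exon length (log axis), KO libraries in red left of WT libraries in blue, with circles, squares and triangles for replicates 1, 2 and 3. Tex11 stands at 46.0 to 59.6 CPM per kb in the 6 libraries, and Msh4 at 0.823 to 2.28.

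MSH4 and MSH5 form the MutSγ clamp, which holds the joint molecules in place. Msh4 (ENSMUSG00000005493, mm10 chromosome 3, 153857149 to 153906138, minus strand, 24 exon blocks) had 12.9, 7.37 and 8.92 CPM in KO replicates 1, 2 and 3, against 15.7, 5.67 and 8.38 CPM in WT replicates 1, 2 and 3. Replicate 1 was highest in each genotype and the groups overlapped. The log2 fold change, KO over WT, was -0.03 ± 0.40 (SE), with a 95% interval of -0.99 to 0.94, and Msh4 did not pass in edgeR (adjusted p = 1). Without WT replicate 1 it was 0.47 ± 0.26, and it did not pass (edgeR adjusted p = 0.692). It was also positive without KO replicate 2, at 0.15 ± 0.46, and without KO replicate 3, at 0.04 ± 0.49.

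Msh5 (ENSMUSG00000007035, chromosome 17, 35028605 to 35046745, minus strand, 24 exon blocks) had 30.9, 21.5 and 25.1 CPM in KO, against 30.8, 16.6 and 22.6 CPM in WT. The pair with number 1 had nearly equal values, and in pairs 2 and 3 the KO library was higher, by 0.37 and 0.15 on the log2 scale. Over all libraries the change was 0.15 ± 0.23 (95% interval -0.41 to 0.70) and Msh5 did not pass in edgeR (adjusted p = 1). Without WT replicate 2 it was -0.05 ± 0.18.

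HFM1 is the helicase of the group, and TEX11 is a scaffold protein encoded on the X chromosome, whose loss in mice causes male infertility. Hfm1 (ENSMUSG00000043410, chromosome 5, 106840192 to 106926321, minus strand, 41 exon blocks) had 114.0, 75.4 and 92.9 CPM in KO, against 114.9, 46.1 and 65.1 CPM in WT. In replicate 1 the genotypes were level, and in replicates 2 and 3 the KO library stood above the WT library by 0.71 and 0.51 on the log2 scale. Over all 6 libraries the log2 fold change was 0.32 ± 0.38 (95% interval -0.66 to 1.3), and Hfm1 did not pass in edgeR (adjusted p = 1). With the replicate number as a block it was 0.39 ± 0.18 and did not pass (edgeR adjusted p = 0.763). Without pair 1 the blocked value was 0.61 ± 0.07 and Hfm1 passed (edgeR adjusted p = 0.00748), a call that rested on 2 pairs and that 63 of 18104 genes (0.348%) reached. The other fits on 2 pairs did not pass, with 0.24 ± 0.18 without pair 2 (edgeR adjusted p = 0.999) and 0.33 ± 0.20 without pair 3 (edgeR adjusted p = 0.949).

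The axis and synapsis list moved in the same libraries as Hfm1. Pairs 1, 2 and 3 gave list medians of -0.03, 0.26 and 0.20 (log2 ratio, KO over WT), and 6, 14 and 12 of its 14 genes were higher in KO in those pairs. Of all 18040 tested genes, 8934, 8943 and 8911 were. Set against the mean of that list in the same library, and centred over the 6 libraries, the log2 level of Hfm1 was 0.19, 0.04 and 0.15 in KO, against 0.21, -0.38 and -0.21 in WT. With libraries scaled to that list, blocked and without pair 1, Hfm1 was 0.39 ± 0.11 (edgeR adjusted p = 0.0102), a call that 12.2% of the genes reached in that fit, where the median of all genes was -0.223. On all 3 pairs with that scaling Hfm1 did not pass, at 0.25 ± 0.10 with the block (edgeR adjusted p = 0.281) and 0.23 ± 0.28 without it (edgeR adjusted p = 0.939). In bulk tissue, more cells of a type and more RNA per cell cannot be told apart.

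Tex11 (ENSMUSG00000009670, chromosome X, 100838648 to 101059667, minus strand, 31 exon blocks) had 215.9, 180.4 and 211.1 CPM in KO, against 198.9, 166.6 and 194.5 CPM in WT. The KO library was higher in 3 of 3 pairs, by 0.12, 0.11 and 0.12 on the log2 scale, as 13.9% of all tested genes were in 3 of 3 pairs. The groups still overlapped. The log2 fold change was 0.12 ± 0.09 (95% interval -0.08 to 0.32; edgeR adjusted p = 1), and with the block 0.12 ± 0.04 (0.03 to 0.21; unadjusted p = 0.0135, edgeR adjusted p = 0.555). In that blocked fit 3.59% of all tested genes were higher in KO at an unadjusted p under 0.05, and Tex11 was the 1 member among them. With libraries scaled to the axis and synapsis list, Tex11 was -0.04 ± 0.28.

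RNF212, CCNB1IP1 (also called HEI10) and CNTD1 regulate which of the marked sites mature into crossovers. RNF212 is a SUMO ligase that stabilises them, HEI10 is a ubiquitin ligase that thins them out, and CNTD1 is a cyclin-like protein needed for the final crossover sites. Rnf212 (ENSMUSG00000055385, chromosome 5, 108729290 to 108774982, minus strand, 14 exon blocks) had 4.83, 4.81 and 5.81 CPM in KO, against 5.80, 4.22 and 5.25 CPM in WT. It was the least counted member, at 96 to 129 counts per library, where counting alone gives an error of up to 10.2%, next to a spread of 11.2% in KO and 15.7% in WT. The log2 fold change was 0.02 ± 0.16 (95% interval -0.35 to 0.38; edgeR adjusted p = 1), and it was -0.08 ± 0.19 without KO replicate 3 and -0.10 ± 0.17 without WT replicate 2.

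Ccnb1ip1 (ENSMUSG00000071470, chromosome 14, 50789249 to 50795728, minus strand, 4 exon blocks) had 12.8, 10.6 and 12.0 CPM in KO, against 12.9, 9.46 and 10.2 CPM in WT. Its groups overlapped, and the log2 fold change was 0.12 ± 0.14 (95% interval -0.19 to 0.43; edgeR adjusted p = 1). The interval thus spans 0.877-fold to 1.35-fold. Scaled to the axis and synapsis list it was -0.02 ± 0.31.

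Cntd1 (ENSMUSG00000078653, chromosome 11, 101279012 to 101296317, plus strand, 13 exon blocks) varied most of the 8, with 22.7, 11 and 13.8 CPM in KO, against 32.3, 6.95 and 10.7 CPM in WT. The highest library, WT 1, stood 4.65-fold above the lowest, WT 2. Pairs 1, 2 and 3 gave log2 ratios of -0.51, 0.65 and 0.36, and over all libraries the log2 fold change was -0.07 ± 0.68 (95% interval -1.85 to 1.70; edgeR adjusted p = 1). Without WT replicate 1 it was 0.84 ± 0.37, and it did not pass (edgeR adjusted p = 0.633). It was 0.14 ± 0.82 without KO replicate 2 and 0.02 ± 0.83 without KO replicate 3. Of the 4421 exon bases of Cntd1, 3104 (70.2%) lie over exons of Becn1 on the opposite strand and 82 over those of Coa3. Becn1, an autophagy gene, had 163.6, 158.1 and 149.4 CPM in KO, against 162.3, 145.7 and 143.9 CPM in WT, and Coa3 had 19, 21.8 and 20.4 CPM in KO, against 19.7, 23.6 and 23.1 in WT. Whether reads from either neighbour entered the Cntd1 counts was not tested. It is unknown which strand mode the counting used, so the counts, CPM and fold changes of Cntd1 are uncertain. The exon length behind its per-kb level is uncertain too.

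MLH3 is the member of the MutL complex that cuts the joint molecules. Mlh3 (ENSMUSG00000021245, chromosome 12, 85234529 to 85270591, minus strand, 12 exon blocks) had 40.9, 41.3 and 42.0 CPM in KO, against 42.9, 42.3 and 47.9 CPM in WT. Every KO library lay below every WT library, as for 3.5% of all tested genes, and the nearest libraries were KO 3 at 42.0 CPM and WT 2 at 42.3 CPM. The log2 fold change was -0.10 ± 0.07 (95% interval -0.26 to 0.06; edgeR adjusted p = 1), so the interval spans 0.834-fold to 1.05-fold. The highest value was in WT replicate 3, the library with the highest sum of epididymis and rete genes, and without it the change was -0.03 ± 0.08. A link between Mlh3 and those genes was not tested.

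**Figure D2:**
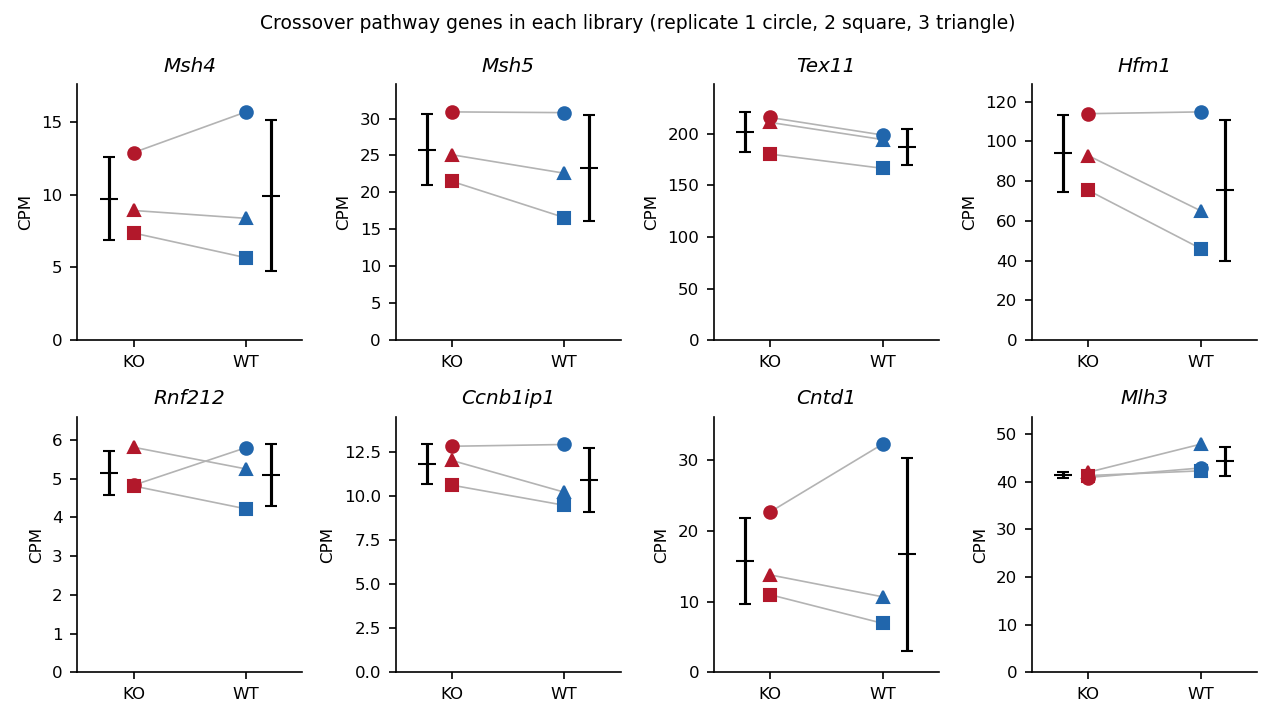
Level of each of the 8 genes in CPM, KO libraries in red on the left and WT libraries in blue on the right, with grey lines joining libraries of the same replicate number and black bars for mean ± SD (n = 3). In Msh4, Hfm1 and Cntd1 replicate 1 (circles) is highest in both genotypes, while Mlh3 lies between 40.9 and 47.9 CPM.

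Between genotypes, 0 of the 8 genes passed over all 18040 genes, and edgeR called 0 genes in the whole table (0%). The targeted gene Ankrd31 did not pass in that fit either, so a missing call there does not show an unchanged level. At an unadjusted p under 0.05 edgeR had 374 genes, and 1349 with the replicate block. DESeq2 called 2 genes and limma voom 0. With the replicate number as a block edgeR called 8 genes (0.0443%), and no crossover pathway gene was among them. Of the 8 members, 5 had a positive log2 fold change, and 7 with the block, beside 47.8% and 48.1% of all tested genes. Their median log2 fold change was 0.067, beside -0.005 over all tested genes, and 0.10 with the block. By pair, 2 of 8 were higher in KO in pair 1, 7 of 8 in pair 2 and 7 of 8 in pair 3, with medians of -0.04, 0.28 and 0.15. Of all 18040 tested genes, 8934, 8943 and 8911 were higher in KO in those pairs. With libraries scaled to the axis and synapsis list 2 of 8 were positive. In the main fit, without the block, the narrowest 95% intervals were those of Mlh3 and Tex11. The widest was that of Cntd1, whose ends were 0.277-fold and 3.25-fold, and with the block 0.597-fold and 1.88-fold. The blocked log2 fold changes were 0.03 ± 0.13 for Msh4, 0.17 ± 0.08 for Msh5 and 0.02 ± 0.15 for Rnf212 (SE). For Ccnb1ip1, Cntd1 and Mlh3 they were 0.13 ± 0.10, 0.08 ± 0.28 and -0.10 ± 0.06.

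**Figure D3:**
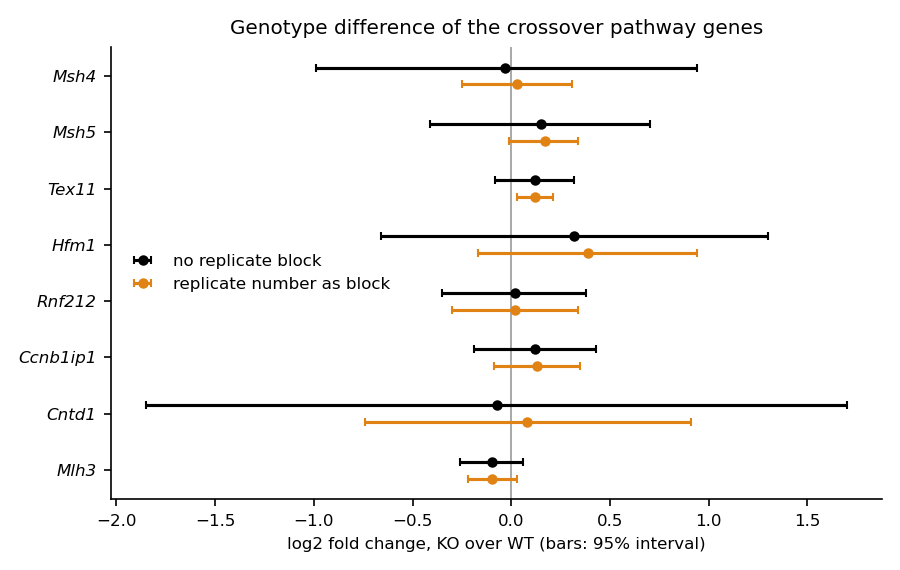
Log2 fold change, KO over WT, of the 8 genes with 95% intervals from edgeR, without (black) and with (orange) the replicate number as a block. All 8 black intervals span 0, and the widest, that of Cntd1, runs from -1.85 to 1.70.

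Most members were higher in replicate 1 than in replicate 2 of the same genotype. In an edgeR test of the replicate-number term in the blocked fit, chosen after the values were seen, 3 of the 8 passed, beside 1587 of 18040 tested genes (8.8%). These were Msh4 (adjusted p = 0.00357), Msh5 (adjusted p = 0.0044) and Tex11 (adjusted p = 0.0144). In Msh4 replicate 1 stood above replicate 2 by 1.14 and above replicate 3 by 0.73 on the log2 scale. In Msh5 these differences were 0.71 and 0.37, and in Tex11 0.26 and 0.03. Cntd1 had the widest differences, 1.63 and 1.17, and did not pass (edgeR adjusted p = 0.134), nor did Hfm1 with 0.95 and 0.56 (edgeR adjusted p = 0.189). For Ccnb1ip1 they were 0.36 and 0.22, for Rnf212 0.24 and -0.06, and for Mlh3 0.01 and -0.10, and none of the 3 passed. Replicate 1 was the highest library of its genotype in both genotypes for 6 of the 8 members, beside 19.5% of all tested genes. The exceptions were Rnf212 and Mlh3.

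The axis and synapsis list had this pattern too. Of its 14 genes, 12 passed the replicate-number test, and 13 were highest in replicate 1 of both genotypes. The median level of the list relative to its mean over 6 libraries was 0.27, -0.13 and 0.07 in KO replicates 1, 2 and 3, against 0.27, -0.45 and -0.11 in WT. Of 10 pachytene genes 7 were tested, and Pgk2, Adam3 and Spag6l were at 1.49 CPM or less in every library and were not. Of the 7, 1 passed the replicate-number test, Hspa2 (edgeR adjusted p = 0.0432), and 6 were highest in replicate 1 of both genotypes, all but Ccna1. Between genotypes 2 of the 7 had a positive log2 fold change, beside 47.8% of all tested genes, with a list median of -0.165. Pair medians were -0.30, 0.27 and 0.08. In pair 1, 0 of the 7 were higher in KO, beside 8934 of 18040 tested genes. The 10 pachytene genes summed to 226 to 295 CPM in KO and 191 to 369 CPM in WT. Hspa2, a heat shock gene, had 128.5, 86.5 and 91.9 CPM in KO, against 158.4, 75.1 and 83.7 CPM in WT. Ldhc, the lactate dehydrogenase of spermatocytes, had 1.68, 1.01 and 0.991 CPM in KO, against 7.92, 0.704 and 0.899 in WT, so WT 1 stood apart. Of 10 spermatogonial genes, 0 passed the replicate-number test, and their sum was 923 to 944 CPM in KO and 912 to 979 CPM in WT. Between genotypes 1 of these 10 had a positive log2 fold change, beside 47.8% of all tested genes. The median of the 10 was -0.095, with pair medians of 0.04, -0.09 and -0.16. The replicate-number test was also passed by 3 of 10 Sertoli, 2 of 8 Leydig, 2 of 6 endothelial, 0 of 8 macrophage and 0 of 6 epididymis and rete genes. The part of germ cell makeup in the member values was not tested.

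**Figure D4:**
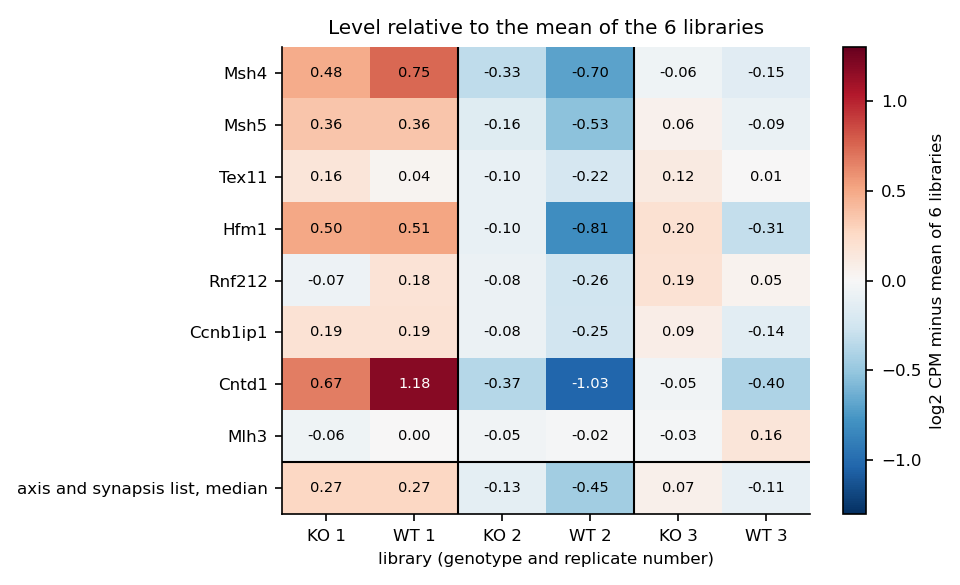
Log2 CPM of each gene minus its mean over the 6 libraries, with libraries side by side by replicate number (KO left, WT right) and the median of 14 axis and synapsis genes in the bottom row. Cntd1 runs from 1.18 in WT 1 to -1.03 in WT 2, and Mlh3 stays between -0.06 and 0.16.

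Over the 6 libraries the members other than Mlh3 followed a common profile. Pearson's r of log2 CPM was 0.99 for Msh4 with Cntd1, 0.98 for Hfm1 with Ccnb1ip1 and 0.97 for Msh4 with Msh5. For Rnf212 with the members other than Mlh3 r was 0.63 to 0.69, and for Mlh3 with the other 7 it was -0.35 to 0.24. These values describe 6 libraries that share their genotype and replicate groups. The 6 other genes with at least 5 CPM whose profile was most like the members' mean profile, out of 12639, were Zgrf1 (r = 0.999), Cenpq (0.997), Ints13 (0.996), Trim23 (0.995), Ccdc158 (0.995) and BC051142 (0.994). Zgrf1, a helicase gene, had 40.0, 32.2 and 38.1 CPM in KO, against 43.5, 27.7 and 36.2 CPM in WT.

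None of the other genes of the pathway passed between genotypes in edgeR, with or without the block. Over all tested genes 47.8% had a positive log2 fold change, with a median of -0.005. Genes of a list were read in the same libraries, so counts of positive genes are not independent. Of 11 further ZMM partners and regulators on the list, 7 were matched, and 6 of the 7 had a positive log2 fold change with a median of 0.107. The helicase gene Brip1 had 0.18 ± 0.09, AI481877 (Shoc1, a ZMM partner) 0.15 ± 0.15 and Tex15 0.11 ± 0.12. Of 7 mismatch repair genes 5 were positive with a median of 0.038, among them the exonuclease gene Exo1 at 0.10 ± 0.07 and the mismatch recognition gene Msh6 at 0.05 ± 0.06.

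Genes that resolve joint molecules by other routes were split, with 6 of 13 positive and a median of -0.042. The nuclease gene Mus81 had -0.14 ± 0.10, the helicase gene Rtel1 -0.10 ± 0.08 and the Bloom helicase gene Blm 0.05 ± 0.06. All 11 matched strand exchange genes were positive, beside 47.8% of all tested genes, with a median of 0.128. By pair 7, 10 and 10 of them were, beside 8934, 8943 and 8911 of 18040 tested genes. Dmc1, the meiotic recombinase gene, had 0.25 ± 0.19, Brca2 0.13 ± 0.10 and Sfr1 0.07 ± 0.06. The axis and synapsis list had 13 of 14 positive and a median of 0.145, with the cohesin gene Smc1b at 0.15 ± 0.12, Syce2 at 0.11 ± 0.10 and 4930447C04Rik (Six6os1) at 0.16 ± 0.15. Pair medians, in pairs 1, 2 and 3, were 0.00, 0.14 and 0.17 for strand exchange genes, next to those of the crossover genes in the plot of list medians by pair.

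**Figure D5:**
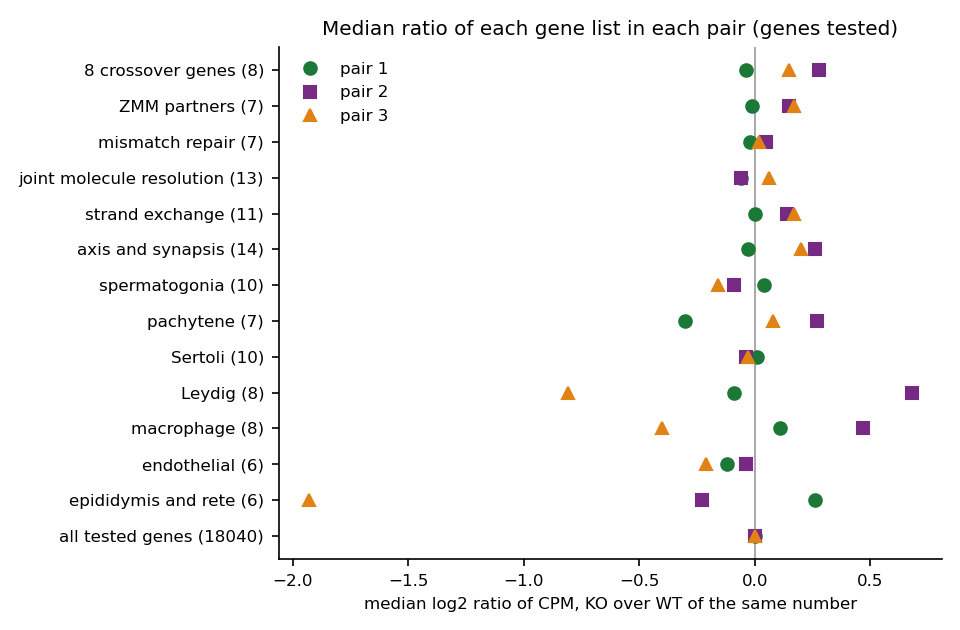
Median log2 ratio of CPM, KO over WT, in each pair of libraries with the same replicate number, for the 8 crossover genes, the other gene lists and all tested genes (number tested in brackets). The crossover genes stand at -0.04, 0.28 and 0.15 in pairs 1, 2 and 3, and the epididymis and rete list at 0.26, -0.23 and -1.93.

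Lists of other testis cells differed between single libraries. In pairs 1, 2 and 3 the median log2 ratio of 8 Leydig cell genes was -0.09, 0.68 and -0.81, that of 8 macrophage genes 0.11, 0.47 and -0.40 and that of 6 endothelial genes -0.12, -0.04 and -0.21. Of the 8 Leydig genes 3 were higher in KO over all libraries, of the 8 macrophage genes 7, and of the 6 endothelial genes 0. Over all tested genes the share was 47.8%. Leydig genes summed to 440 to 978 CPM in KO and 535 to 619 CPM in WT, macrophage genes to 161 to 192 CPM in KO and 133 to 191 CPM in WT, and endothelial genes to 119 to 137 CPM in KO and 127 to 160 CPM in WT. The 10 Sertoli genes had medians of 0.01, -0.04 and -0.03 in the pairs. Of 7 epididymis and rete genes 6 were tested and all 6 were lower in KO, with sums of 75.1 to 90.2 CPM in KO and 74.6 to 145 CPM in WT; Crisp1 was at 0 in KO 1 and WT 1. Their part in the member values was not tested.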

How the data were processed

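RNA of whole testes was sequenced with a stranded kit, per the labels' protocols. The deposited values are unnormalised counts of reads by gene, in 6 columns. The submitters' processing notes name mm10, featureCounts 1.6.0, GSNAP and bcl2fastq 2.19.1. The sources used here do not say how strand and multiply matching reads were treated. The table's exon length, per the file headers, is an other value, in bases, and served for levels per kb.

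Of 49763 rows, 92 spike-in rows with 1 count were left out, and 49326 of 49671 gene identifiers matched a GENCODE M21 symbol. Groups came from the titles. Replicates of a group differed by a chi-square per degree of freedom between 7.82 and 14.37 (genes of 10 or more counts), so none was a duplicate. Nothing says that samples of a group came from separate animals, so p-values measure the spread between these samples, which may be technical.

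Tests were edgeR 4.0.16 quasi-likelihood F tests (R 4.3.3; TMM scaling, filterByExpr, robust), with Benjamini-Hochberg adjustment over 18040 genes and a threshold of 0.05; SE and 95% intervals come from the same fit, and 3 libraries a group limit their precision. List levels used log2 CPM with a prior count of 2, and pair ratios an offset of 0.1 CPM. Libraries sharing a number deviated together from their group means (r = 0.42, 0.26 and 0.28, limit 0.1). The numbers, taken from the titles, were therefore treated as pairs in the pair ratios and the blocked fits. The main fit used genotype alone, so its SE and intervals include the differences between replicate numbers, and the replicate block was an alternative. DESeq2 1.42.0, limma 3.58.1 voom, other scalings and filters, and fits without libraries were alternatives. Motifs, the replicate-number test and the added alternatives were chosen after the data were seen. The code was tested on simulated data. The members and lists were chosen with earlier results of these data known. Named genes were the members, Ankrd31, the 3 genes with the smallest p in each pathway list, the 6 most alike in profile and the highest genes of cell type lists; Becn1, Coa3, Ldhc, Ccna1, Crisp1, Pax2, Epcam, Mcmdc2, Meiob and the pachytene genes near 0 were named after their values were seen. A few list genes are not reported here.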

Additional observations from a re-analysis of the deposited data

How the results depend on the processing

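Direction and call were kept in most of 21 alternatives per gene, and 6 of the 8 genes passed in none. The direction reversed in 9 of 21 for Msh4, 9 for Cntd1 and 7 for Rnf212, so their sign was not settled. It reversed in 3 for Tex11, 3 for Ccnb1ip1, 1 for Msh5 and 0 for Hfm1 and Mlh3. The number of genes called was 0 without any 1 library, 8 with the replicate block, 1 without the filter on low counts, 2 with DESeq2, and, with the block, 63 without pair 1, 57 without pair 2 and 0 without pair 3. Alternatives added after the data were seen gave 1 with voom and the block, and, with the block and without pair 1, 71 with voom, 95 with RLE scaling and 2213 when scaled to the axis and synapsis list, which moved the median of all genes to -0.223. With that scaling and the block on all pairs 115 were called.

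Hfm1 kept its direction in all 21 (0.06 to 0.76) and passed with the block and without pair 1, at 0.61, but not without pair 2 (0.24) or pair 3 (0.33); without pair 1 it also passed at 0.61 with voom, 0.61 with RLE scaling and 0.39 with the list scaling; Mlh3 passed with that last setting, at -0.33. Msh4 turned positive with the block (0.03), with voom (0.07) and with the block without pair 1 (0.23; 0.22 with voom, 0.23 with RLE, 0.01 with list scaling). Cntd1 turned positive with the block (0.08), with voom (0.17) and with the block without pair 1 (0.50; 0.49 with voom, 0.51 with RLE, 0.29 with list scaling). With list scaling Tex11, Rnf212 and Ccnb1ip1 turned negative, at -0.04, -0.11 and -0.02, at -0.03, -0.12 and -0.02 with the block as well, and at -0.10, -0.05 and -0.02 also without pair 1. Rnf212 was -0.06 and -0.05 with the block without pair 2 or pair 3.

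Without 1 library the ranges were -0.31 to 0.47 for Msh4, -0.05 to 0.40 for Msh5, 0.04 to 0.20 for Tex11, 0.06 to 0.76 for Hfm1, -0.10 to 0.12 for Rnf212, 0.03 to 0.26 for Ccnb1ip1, -0.45 to 0.84 for Cntd1, -0.13 to -0.03 for Mlh3 and -0.08 to 0.33 for the median of the members. The cause was not tested. The replicate block changed no call of a member on all 3 pairs. Depth limits Rnf212 most.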

Other observations

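The WT libraries were spread more widely than the KO libraries for 7 of the 8 crossover genes, where 57.7% of all tested genes had the wider range in WT; this was not tested. The ratio of the highest to the lowest library was 2.06 in KO and 4.65 in WT for Cntd1, 1.75 in KO and 2.77 in WT for Msh4, and 1.51 in KO and 2.49 in WT for Hfm1. Tex11 was the exception, at 1.20 in KO and 1.19 in WT. The wider WT range was not particular to the crossover genes. Relative to its mean over 6 libraries, the median of the axis and synapsis list was 0.27, -0.13 and 0.07 in KO replicates 1, 2 and 3. In WT it was 0.27, -0.45 and -0.11. Mcmdc2, a gene of the partner list, had 5.33, 3.71 and 4.33 CPM in KO, against 6.84, 2.11 and 2.60 CPM in WT. Meiob, which encodes a single-strand DNA binding protein of meiosis, had 31.9, 17.5 and 19.7 CPM in KO, against 36.1, 9.32 and 16.9 CPM in WT. Other genes of the same lists went the other way. Tex15, of the partner list, had an SD of 71.5 CPM in KO and 68.8 CPM in WT. Brca2, of the strand exchange list with Meiob, had an SD of 21.5 CPM in KO and 13.5 CPM in WT. Genes with a wider WT range were not counted by list. These examples were chosen after their values were seen.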
